A study of Mus musculus with 18 samples.

Results

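The 10 genes described here are ones that canonical Wnt signalling is known to switch on, or that feed back on the pathway, followed across 6 kinds of mouse pluripotent stem cell. They are Axin2, Lef1, Tcf7, Sp5, Nkd1, Notum, Rnf43, Znrf3, Dkk1 and Cdx1, taken as a named list of 10 genes of the 35773 counted, and all 10 passed the filter on low counts among 16901 genes tested. In the absence of a Wnt signal, a destruction complex built on AXIN proteins, APC and the kinase GSK3 marks β-catenin for degradation. When WNT ligands engage Frizzled and LRP receptors, or when GSK3 is inhibited, β-catenin accumulates, enters the nucleus and acts through TCF and LEF factors. Several of the genes it activates encode brakes on the pathway, so their transcripts are commonly read as a gauge of signalling, and in pluripotent cells the same signal is known both to favour the naive state and, in primed cells, to start differentiation towards the primitive streak.

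The study asked how advanced pluripotent stem cells (ASCs), a state derived in ABCL medium, compare with other pluripotent cells. ABCL is N2B27 with activin A, BMP4, CHIR99021 and leukaemia inhibitory factor, and CHIR99021 is a GSK3 inhibitor used to mimic canonical Wnt signalling. PolyA RNA of 18 samples was sequenced, with 3 samples in each of 6 groups, all labelled wild type and of strain 129S2/SvPasCrl, although the study's methods also describe reporter lines from crosses with males of mixed background. AFSCs are primed cells grown from blastocysts in activin A and FGF2, ASCs were obtained from AFSCs in ABCL, ESCs are naive cells in 2i/LIF, and ESC-ASCs are ESCs passaged in ABCL. Hence ESCs, ASCs and ESC-ASCs all grew with CHIR99021, in 2i/LIF together with a MEK inhibitor and in ABCL together with activin A and BMP4. EpiLCs are epiblast-like cells and EpiSCs are epiblast stem cells, and the media of both are not given in the sources used here. The labels do not say which line, clone or passage a sample came from, nor whether the ASC samples descend from the AFSC samples.

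The libraries held between 4961934 and 18071600 counts, with the 3 ESC-ASC libraries at 17813619 or more and the other 15 at 9906473 or fewer. Core pluripotency transcripts (Pou5f1, Sox2 and Nanog) were present in every sample, with summed levels of 6207 to 12731 normalised read counts per kb of exon. The sum of 5 naive markers (Esrrb, Klf4, Tfcp2l1, Prdm14 and Tbx3) ran from 1953 to 2917 in the ESC, ASC and ESC-ASC samples and from 9.02 to 27.6 in the EpiLC, AFSC and EpiSC samples, so a named CHIR99021 supply and naive markers divide the samples in the same way and cannot be told apart, and whether the EpiLC and EpiSC media held CHIR99021 is not known. Markers of the postimplantation epiblast summed to 4000 to 4634 in EpiLCs, 3110 to 3412 in EpiSCs, 1926 to 2595 in AFSCs and 401 or less in the others. Fibroblast markers (Dcn, Lum, Postn, Thy1, Col1a1 and Col3a1) summed to 108 to 124 in EpiLCs, 73.7 to 114 in ASCs and 50.8 to 60.3 in ESC-ASCs. Their sum was 25.8 to 42.5 in AFSCs and 15.8 to 19.2 in EpiSCs. In ESCs it was 92.3, 36.3 and 52.4, and the part of such cells was not tested. Trophoblast markers (Elf5, Gata3, Tfap2c, Ascl2 and Krt7) summed to 216 to 313 in ESCs, ASCs and ESC-ASCs and to 44.7 or less elsewhere, mostly through Tfap2c (271, 190 and 145) and, in ESC-ASCs, Ascl2 (141). Elf5 was at or near 0 throughout, and Krt7 was about as high in EpiSCs (13.9) as in ESC-ASCs (13.8). The first library of the AFSC, ASC, ESC and EpiLC groups stood apart from its 2 fellows, most of all in AFSCs, where the chi-square statistic per degree of freedom was 100 and 92.5 against the others and 11.8 between them. Each comparison was repeated without these 4 libraries, a choice made after seeing the data. Levels are normalised read counts per kb of exon, scaled for depth with DESeq2's factors. Differences are log2 fold changes with their standard error (SE) from quasi-likelihood tests in edgeR. Their p-values were adjusted by Benjamini and Hochberg's method across the 16901 tested genes, and a gene was called at an adjusted p below 0.05.

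The 250 bases upstream of the start of Sp5 are shown because Sp5 varied most among the genes with counts in every sample, and because they held 2 matches to short motifs known for TCF and LEF factors, on opposite strands. Mouse Sp5 lies on chromosome 2 of GRCm38, and the sequence is RefSeq's for GRCm38.p6, chr2:70474673-70474922 on the plus strand, with matches to CTTTGTT (read on the other strand, first base at -222) and CTTTGAT (first base at -104) in capitals.
Sp5 upstream: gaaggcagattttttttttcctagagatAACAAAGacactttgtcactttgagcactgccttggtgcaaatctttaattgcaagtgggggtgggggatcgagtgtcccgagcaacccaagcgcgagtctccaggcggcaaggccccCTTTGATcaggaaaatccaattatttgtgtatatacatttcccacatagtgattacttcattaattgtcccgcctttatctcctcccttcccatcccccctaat
The stretch spanning the 2 matches at Dkk1, a secreted inhibitor, is chr19:30549588-30549613 on the minus strand, from -117 to -92 of the RefSeq start, and lies within an exon as the deposited files draw the gene.
Dkk1 stretch: CTTTGAAatcccatcccggCTTTGTT
The letters CTTTGAT or their variant CTTTGAA, as well as CTTTGTT together with CTTTGTA, were searched on both strands in RefSeq windows from 250 bases before to 50 after a start, and a window was used for 7 of the 10 genes. No window was available for Notum and Znrf3, and Cdx1 was left out of the search by rule. Sp5 and Dkk1 each held 2 matches, and the windows of Axin2, Lef1, Tcf7, Nkd1 and Rnf43 held 0. The RefSeq start of Nkd1 lies 6279 bases from the start of the gene in the deposited files, so its window describes another start than the one counted. Those of Rnf43, Dkk1 and Lef1 lie 365, 169 and 148 bases from it, and the window of Rnf43 lies within the span of the counted gene. Of all 32851 such windows, 16.9% held at least 1 match and 1.9% held 2 or more. A match describes letters only, and its absence says nothing of sites outside the window.

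Axin2 (ENSMUSG00000000142, chromosome 11, 108920349 to 108950783 on the plus strand, GRCm38) encodes a scaffold of the destruction complex and is the most widely used read-out of canonical Wnt activity. Its level was 185, 226 and 216 normalised read counts per kb in the 3 ESC samples, 110, 102 and 112 in ASCs and 98.9, 103 and 98.0 in EpiSCs. It was 49.2, 56.8 and 82.6 in AFSCs, 41.8, 32.9 and 44.6 in ESC-ASCs, and 6.50, 9.48 and 9.13 in EpiLCs. ESCs lay above all other groups and EpiLCs below, and AFSCs did not overlap ESC-ASCs or EpiSCs, while the ASC and EpiSC samples overlapped and did not pass the test (0.10 with SE 0.17, adjusted p = 0.605). ESCs exceeded ASCs by 0.97 on the log2 scale (SE 0.17, adjusted p = 9.78e-05), and ESC-ASCs exceeded EpiLCs by 2.21 (SE 0.20, adjusted p = 1.66e-08). Gm11670 on the opposite strand shares 3.80% of the exonic bases of Axin2. In bulk samples such as these, fewer expressing cells and less RNA per cell cannot be told apart.

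**Figure D1:**
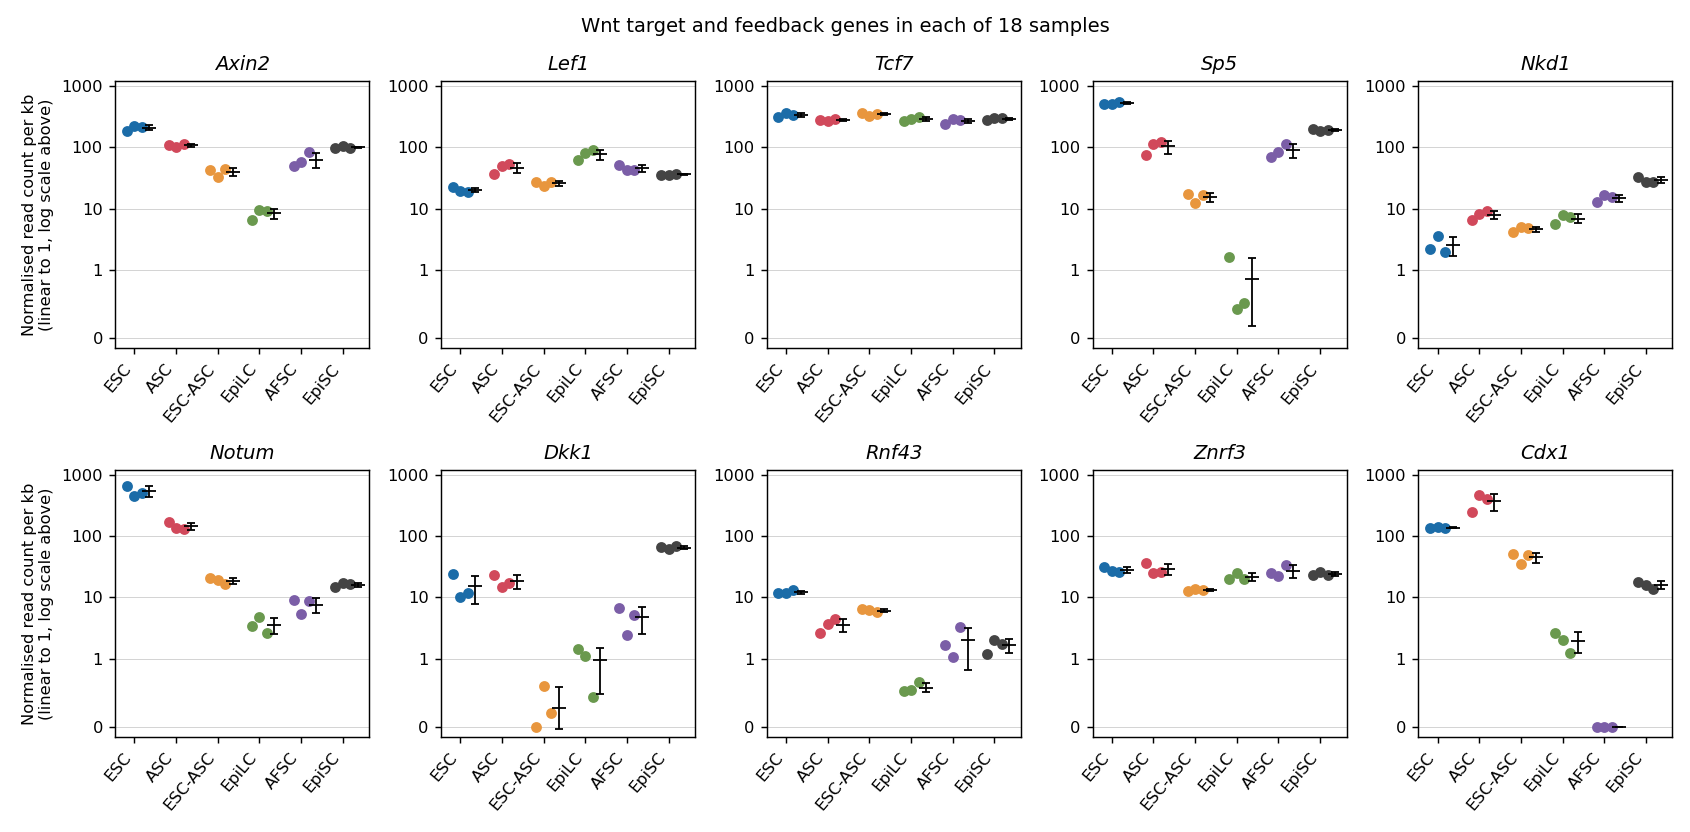
Normalised read count per kb of exon for the 10 genes in each of the 18 samples (points), with the mean and SD of 3 samples in black; the axis is linear up to 1 and logarithmic above. Axin2, Sp5, Notum and Rnf43 had their highest points in ESCs and their lowest in EpiLCs, Tcf7 stayed between 241 and 365, and Cdx1 lay at 0 in the 3 AFSC samples.

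Sp5 (ENSMUSG00000075304, chromosome 2, 70474923 to 70477729 on the plus strand), whose upstream motifs are shown above, encodes a zinc finger factor that represses other Wnt targets. It stood at 505, 515 and 545 normalised read counts per kb in the ESC samples, 195, 184 and 191 in EpiSCs, 74.5, 115 and 121 in ASCs and 68.6, 84.3 and 114 in AFSCs. It stood lower, at 17.1, 12.6 and 16.8, in ESC-ASCs and at 1.65, 0.421 and 0.510 in EpiLCs, where the 3 libraries held 3, 1 and 1 counts. Among neighbours in this order, only ASCs and AFSCs overlapped (0.18 with SE 0.19, adjusted p = 0.409). The summed ESC counts were 646 times those of EpiLCs after scaling for depth (95% counting interval 276 to 1990.5). Across the 18 samples the log2 levels of Sp5 and Axin2 had a Pearson r of 0.97, a description over samples that share their groups.

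Lef1 and Tcf7 encode the DNA-binding partners of β-catenin and are themselves Wnt targets in many tissues. Lef1 (ENSMUSG00000027985, chromosome 3, 131110471 to 131224356 on the plus strand) was highest where Axin2 was lowest. Its level was 60.9, 80.4 and 89.4 normalised read counts per kb in EpiLCs, 37.1, 50.3 and 52.7 in ASCs, 51.8, 42.1 and 42.4 in AFSCs, 35.8, 35.1 and 37.3 in EpiSCs, 27.3, 23.4 and 27.4 in ESC-ASCs and 22.2, 19.5 and 18.9 in ESCs. ESCs showed the reverse order, the lowest Lef1 with the highest Axin2, with an r of -0.70 between both genes over the 18 samples. EpiLCs exceeded ASCs, next in order, by 0.75 (SE 0.15, adjusted p = 0.000349), whereas ASCs and AFSCs did not pass the test (adjusted p = 0.943). A predicted gene on the opposite strand, Gm43352, shares 13.7% of the exonic bases of Lef1, and the counting did not use strand. Tcf7 (ENSMUSG00000000782, chromosome 11, 52252371 to 52283014 on the minus strand) was the most even of the 10, with group means from 269 ± 24.6 in AFSCs to 349 ± 18.7 in ESC-ASCs (SD, n = 3), and no pair of neighbours in its order passed the test.

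Nkd1 (ENSMUSG00000031661, chromosome 8, 88521354 to 88594884 on the plus strand) encodes an antagonist that binds Dishevelled. Its level was 33.1, 27.5 and 27.0 normalised read counts per kb in EpiSCs, 12.7, 16.5 and 15.7 in AFSCs, 6.63, 8.20 and 9.14 in ASCs, 5.58, 7.76 and 7.28 in EpiLCs, 4.10, 5.04 and 4.74 in ESC-ASCs and 2.16, 3.58 and 1.96 in ESCs. The 6 samples of AFSCs and EpiSCs lay above all others, and ESCs, the group with most Axin2, had the least Nkd1. The ESC values rest on 5 to 14 counts a library. EpiSCs exceeded AFSCs by 0.94 (SE 0.19, adjusted p = 0.000676) and AFSCs exceeded ASCs by 0.93 (SE 0.21, adjusted p = 0.000833), while ASCs and EpiLCs overlapped (adjusted p = 0.507).

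Notum and Dkk1 act outside the cell. NOTUM is a secreted enzyme that removes the lipid from WNT proteins, and DKK1 blocks the LRP co-receptors. Notum (ENSMUSG00000042988, chromosome 11, 120653788 to 120661175 on the minus strand) stood at 653, 454 and 506 normalised read counts per kb in the ESC samples, 168, 133 and 132 in ASCs, 20.4, 19.1 and 16.3 in ESC-ASCs, 14.7, 16.8 and 16.6 in EpiSCs, 8.95, 5.29 and 8.60 in AFSCs and 3.36, 4.78 and 2.67 in EpiLCs. ESCs and ASCs lay far above the other groups, and among neighbours only ESC-ASCs and EpiSCs overlapped (0.20 with SE 0.20, adjusted p = 0.383). Part of this signal cannot be assigned to a strand, since Notumos and Myadml2os on the opposite strand cover 38.1% of the exonic bases of Notum. The 3 ESC libraries held 799 to 1093 counts for Notum against 121 to 325 for Notumos and 151 to 244 for Myadml2os, and the 3 AFSC libraries held 11 to 20 against 2 to 11 and 3 to 6.

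Dkk1 (ENSMUSG00000024868, chromosome 19, 30545863 to 30549665 on the minus strand), which had a pair of motifs as shown above, followed another order. It was highest in EpiSCs at 64.9, 60.3 and 68.4 normalised read counts per kb, then 23.1, 14.6 and 17.2 in ASCs and 23.5, 10.1 and 11.9 in ESCs, with ASC and ESC samples overlapping (adjusted p = 0.436). AFSCs held 6.66, 2.38 and 5.12. EpiLCs held 1.43, 1.09 and 0.441 and ESC-ASCs 0, 0.604 and 0.207, which are 3, 3 and 1 counts and 0, 3 and 1 counts a library. EpiLCs and ESC-ASCs overlapped near the detection limit (adjusted p = 0.0979), so Dkk1 was close to undetected in ESC-ASCs and EpiLCs alike.

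Rnf43 and Znrf3 encode paralogous membrane ubiquitin ligases that remove Frizzled receptors from the cell surface. Rnf43 (ENSMUSG00000034177, chromosome 11, 87662722 to 87735539 on the plus strand) was 11.7, 11.5 and 12.9 normalised read counts per kb in ESCs, 6.47, 6.11 and 5.67 in ESC-ASCs, 2.63, 3.64 and 4.35 in ASCs, 1.64, 1.06 and 3.32 in AFSCs, 1.20, 2.02 and 1.75 in EpiSCs and 0.529, 0.540 and 0.653 in EpiLCs, where the libraries held 3, 4 and 4 counts. ESCs and ESC-ASCs lay above all other samples without overlap, and EpiLCs below. The ESC sum was 21.2 times that of EpiLCs (95% counting interval 11.6 to 43.2). Znrf3 (ENSMUSG00000041961, chromosome 11, 5276324 to 5444847 on the minus strand) varied little, with group means of 21.5 to 29.0 in 5 groups, and stood apart only in ESC-ASCs at 12.68, 13.8 and 12.99. ESC-ASCs fell short of EpiLCs, next in order, by 0.73 (SE 0.18, adjusted p = 0.00139), and no other pair of neighbours passed the test. The 2 ligases hence parted in ESC-ASCs, which had the second highest Rnf43 and the lowest Znrf3.

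Cdx1 (ENSMUSG00000024619, chromosome 18, 61018862 to 61036199 on the minus strand) encodes a homeobox factor of the posterior embryo that Wnt signals induce directly. It was 245, 460 and 404 normalised read counts per kb in the ASC samples, 135, 142 and 135 in ESCs, 50.5, 35.2 and 49.1 in ESC-ASCs, 18, 16.1 and 13.6 in EpiSCs and 2.64, 2.02 and 1.22 in EpiLCs. All 3 AFSC libraries held 0 counts, so the level there was below what 3 counts a library would give, 2.02 on average. Against that limit Cdx1 was at least 183-fold higher in ASCs, 67.9-fold in ESCs, 22.2-fold in ESC-ASCs and 7.87-fold in EpiSCs. None of the 5 groups with counts overlapped another, and every pair of neighbours passed the test, with ASCs above ESCs by 1.41 (SE 0.20, adjusted p = 2.34e-05) and ESCs above ESC-ASCs by 1.63 (SE 0.21, adjusted p = 3.65e-06). The pair of EpiLCs and AFSCs rests on 2 to 4 counts a library against 0. The EpiLC mean of 1.96 lay below the AFSC limit of 2.02, so that limit does not separate both groups. Cdx1 was the 1 gene of the 10 for which the 9 samples of ESCs, ASCs and ESC-ASCs lay above all 9 others. The study reported that immunofluorescence for CDX1 protein was uneven among ASCs, and bulk RNA does not show how its transcript varied between cells.

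Set against the other 3 groups together, the 3 groups with CHIR99021 in a named medium had higher levels of 6 of the 10 genes (Axin2, Tcf7, Sp5, Notum, Rnf43 and Cdx1) and lower levels of 2 (Lef1 and Nkd1), in a comparison that called 74.8% of all tested genes (38% higher and 36.8% lower). Beyond 1 on the log2 scale were 6 of the 10 and 35.8% of all. Notum differed by 3.86 (SE 0.13, adjusted p = 1.85e-15), Rnf43 by 2.31 (SE 0.19, adjusted p = 2.01e-09), Sp5 by 1.93 (SE 0.17, adjusted p = 4.79e-09) and Axin2 by 1.35 (SE 0.10, adjusted p = 6.75e-10). The samples of all of these but Cdx1 overlapped between both sides, and AFSCs and EpiSCs held more Axin2 and Sp5 than ESC-ASCs. The p-values rest on the spread of samples within groups and do not measure how alike the groups of a side are. Leaving out ESC-ASCs raised the difference of Axin2 to 2.01 and that of Sp5 to 3.25, and turned Dkk1 from -0.64 (adjusted p = 0.0921) to 1.28 (adjusted p = 0.000244). The call of Tcf7, at 0.17 (SE 0.06, adjusted p = 0.0245), was lost in 4 of 26 alternatives. Without the 4 first libraries that stood apart, 9 genes were called, with Znrf3 now lower (-0.25, adjusted p = 0.0140).

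**Figure D2:**
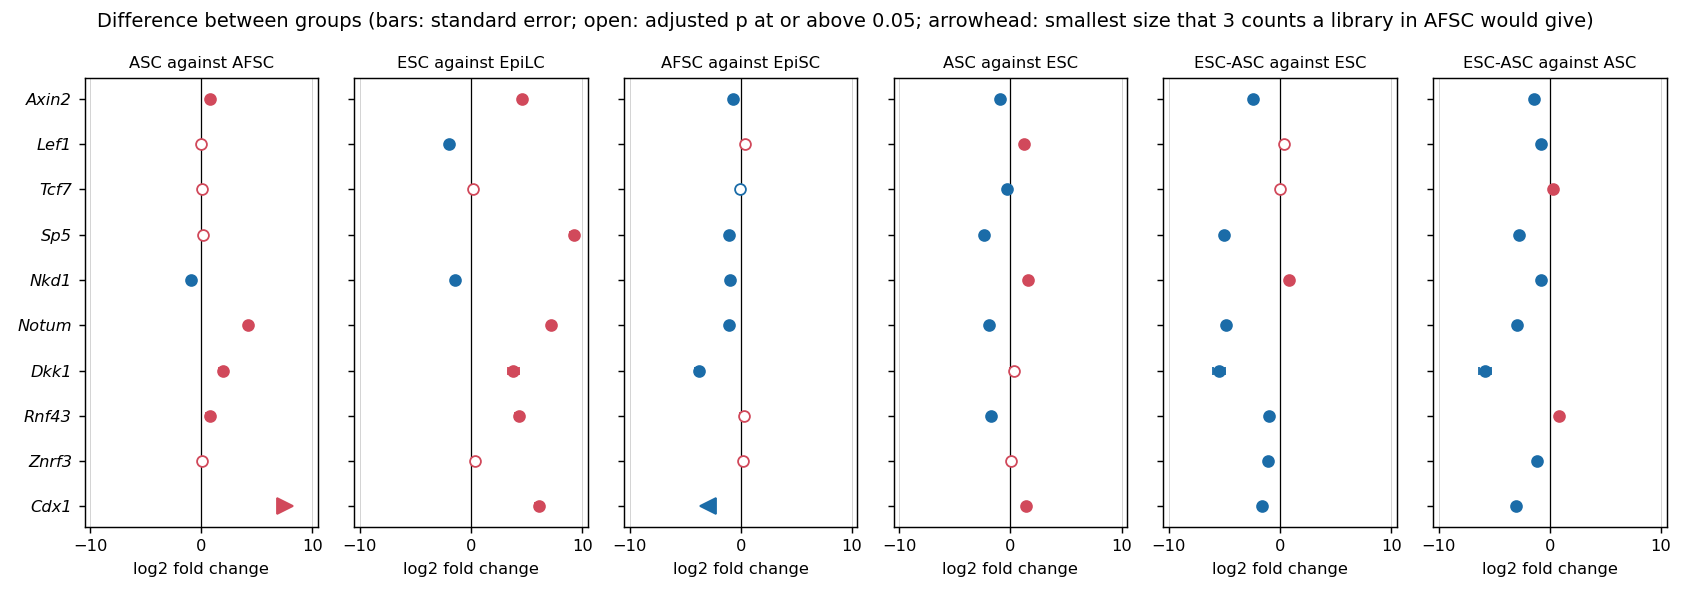
Log2 fold change of each of the 10 genes (points) with its standard error (bars) in 6 comparisons of 2 groups; open points did not pass the test, and arrowheads give the size that 3 counts a library in AFSCs would allow for Cdx1. ESC-ASCs lay below ASCs in 8 of 10 genes and below ESCs in 7, and all 6 genes called between AFSCs and EpiSCs lay lower in AFSCs.

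ASCs, in ABCL, were compared with AFSCs, the kind of primed cell from which they are derived. Both also differ in the sum of 5 naive markers (2530 to 2860 in ASCs, 15.7 to 24.0 in AFSCs), and the part of the medium was not tested. Of the 10 genes 5 were higher in ASCs (Axin2, Notum, Rnf43, Dkk1 and Cdx1) and 1 lower (Nkd1), where 64% of all tested genes were called (32.8% higher and 31.2% lower). Beyond 1 on the log2 scale were 3 of the 10 and 39.4% of all. Notum was higher in ASCs by 4.22 (SE 0.21, adjusted p = 6.23e-12), Dkk1 by 1.93 (SE 0.38, adjusted p = 0.000212) and Axin2 by 0.75 (SE 0.17, adjusted p = 0.000791). Cdx1 was at 0 counts in AFSCs and had its highest level of any group in ASCs. Sp5, Lef1, Tcf7 and Znrf3 gave differences of 0.18, 0.01, 0.02 and 0.08 (SE 0.19, 0.15, 0.11 and 0.18), and their samples overlapped. The median over the 10 genes was 0.47, beside 0.02 over all tested genes. Rnf43, at 0.76 (SE 0.32, adjusted p = 0.0494), was lost in 9 of 14 alternatives, which include fits that keep every library, such as DESeq2's test (adjusted p = 0.0553) and a fit of only these groups (adjusted p = 0.145). It was 0.44 (adjusted p = 0.240) without the second AFSC library and 1.36 (adjusted p = 0.00207) without the third. Leaving out the 4 first libraries also gave 6 called genes, but with Lef1 (0.28, adjusted p = 0.0250) in the place of Rnf43.

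Of the 7 comparisons, that of ESCs with EpiLCs had the largest median difference over the 10 genes. ESCs had more Axin2, Sp5, Notum, Rnf43, Dkk1 and Cdx1 and less Lef1 and Nkd1, so 6 were higher and 2 lower, against 55.3% of all tested genes called (26.6% higher and 28.7% lower). All 8 differed by more than 1 on the log2 scale, as did 34% of all tested genes. Notum differed by 7.17 (SE 0.23, adjusted p = 2.58e-14), Axin2 by 4.62 (SE 0.20, adjusted p = 8.79e-13) and Lef1 by -1.94 (SE 0.16, adjusted p = 6.02e-09). For the genes with few EpiLC counts, the ratio of summed counts was 70.6 for Cdx1 (95% counting interval 38.1 to 148) and 14.1 for Dkk1 (6.50 to 36.1). The median over the 10 genes was 4.08, beside -0.06 over all tested genes, and 9 of the 10 were called without the 4 first libraries, with Tcf7 now higher in ESCs (0.25, adjusted p = 0.0222).

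ASCs and ESCs, both grown with CHIR99021, differed in most of the 10 genes. ASCs had less Axin2, Sp5, Notum, Rnf43 and Tcf7 and more Lef1, Nkd1 and Cdx1, that is 5 lower and 3 higher in a comparison that called 50.3% of all tested genes (23.9% lower and 26.4% higher). Beyond 1 on the log2 scale were 6 of the 10 and 25.8% of all. Sp5 fell by 2.36 (SE 0.19, adjusted p = 1.27e-08), Notum by 1.91 (SE 0.16, adjusted p = 2.21e-08) and Rnf43 by 1.79 (SE 0.27, adjusted p = 2.40e-05), while Nkd1 rose by 1.58 (SE 0.27, adjusted p = 0.000108) and Lef1 by 1.19 (SE 0.16, adjusted p = 7.80e-06). The call of Tcf7 (-0.30 with SE 0.11, adjusted p = 0.0317) was lost in 9 of 15 alternatives, and 8 genes in all were called without the 4 first libraries.

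Sharing a medium did not go with sharing levels of these genes. ESC-ASCs and ASCs both grew in ABCL, yet all 10 genes were called between them, 8 lower in ESC-ASCs and 2 higher (Rnf43 and Tcf7), where 50.7% of all tested genes were called (27.7% lower and 23% higher). Beyond 1 on the log2 scale were 6 of the 10 and 24.5% of all. Dkk1 was 66.5 times higher in ASCs by summed counts (95% counting interval 25.3 to 248), and ESC-ASCs were lower in Cdx1 by 3.03 (SE 0.21, adjusted p = 7.09e-09), in Notum by 2.95 (SE 0.18, adjusted p = 3.81e-10), in Sp5 by 2.73 (SE 0.21, adjusted p = 7.04e-09) and in Axin2 by 1.43 (SE 0.17, adjusted p = 1.55e-06). Without the 4 first libraries 9 of the 10 were called, with Rnf43 lost (0.59, adjusted p = 0.0587). Rnf43, 0.79 higher (SE 0.26, adjusted p = 0.0185), was also lost without the first ASC library (0.61, adjusted p = 0.0865) and without the first ESC-ASC library (0.75, adjusted p = 0.0518), and Tcf7, 0.33 higher (SE 0.11, adjusted p = 0.0167), without the second ASC library (0.31, adjusted p = 0.0532) and without the first ESC-ASC library (0.31, adjusted p = 0.0536). Starting cell, line, clone and passage cannot be told apart here, since the labels do not give the last 3. The ESC-ASC libraries are also the deepest of the series, and the part of depth in these differences was not tested.

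Relative to ESCs, the kind of cell they came from, ESC-ASCs had lower levels of 7 genes (Axin2, Sp5, Notum, Rnf43, Znrf3, Dkk1 and Cdx1) and a higher level of Nkd1, where 60.1% of all tested genes were called (29.6% lower and 30.6% higher). All 7 differed by more than 1 on the log2 scale, as did 36.4% of all tested genes, led by Sp5 at -5.09 (SE 0.22, adjusted p = 1.41e-12) and Notum at -4.86 (SE 0.19, adjusted p = 4.67e-13). Dkk1 was 50.5 times higher in ESCs by summed counts (95% counting interval 18.9 to 190). Nkd1, 0.81 higher (SE 0.27, adjusted p = 0.0160), was lost without the first ESC library (0.72, adjusted p = 0.0506) and without the third (0.60, adjusted p = 0.129), and 9 genes were called without the 4 first libraries. The added gene was Lef1, which was 0.36 higher in ESC-ASCs (SE 0.16, adjusted p = 0.0604), without overlap, and was called in 6 of 14 alternatives.

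**Figure D3:**
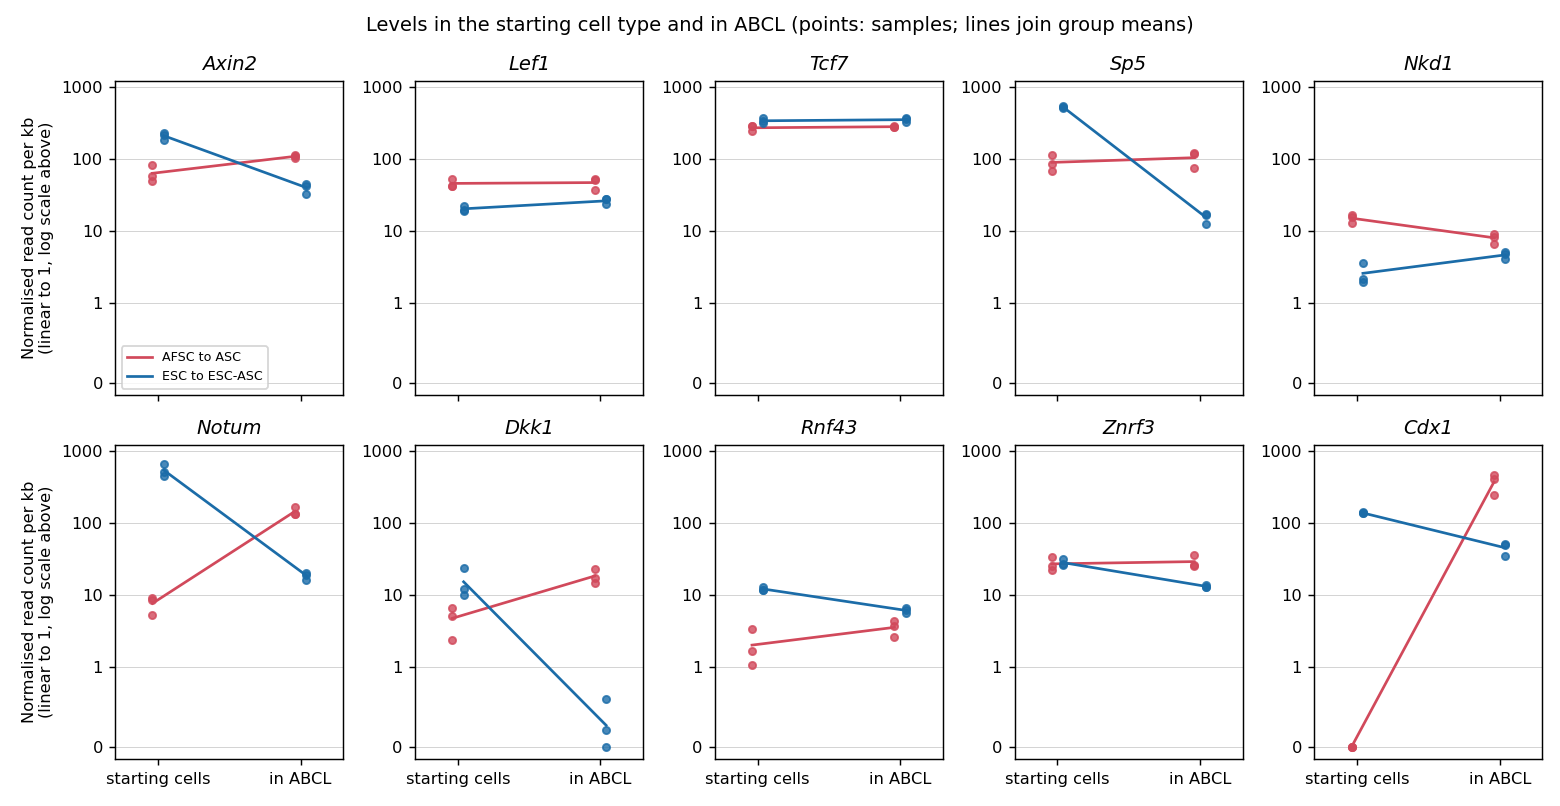
Normalised read count per kb of the 10 genes in AFSCs and ASCs (red) and in ESCs and ESC-ASCs (blue); points are samples, lines join group means, and the axis is linear up to 1 and logarithmic above. The lines of Axin2, Sp5, Notum, Dkk1 and Cdx1 cross, with AFSCs below ESCs in the starting cells and ASCs above ESC-ASCs in ABCL, while AFSCs and ESCs overlapped in Znrf3.

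EpiSCs and AFSCs are both primed, and the 6 genes called between them (Axin2, Sp5, Nkd1, Notum, Dkk1 and Cdx1) were all higher in EpiSCs, where 39.4% of all tested genes were called (17.8% higher and 21.6% lower in EpiSCs). Beyond 1 on the log2 scale were 4 of the 10 and 20.8% of all. Dkk1 was 3.76 higher (SE 0.35, adjusted p = 7.72e-08), and Sp5 and Notum were each 1.07 higher (SE 0.19 and 0.25, adjusted p = 0.000150 and 0.00191). Without the 4 first libraries 7 genes were called, with Lef1 now higher in AFSCs (0.25, adjusted p = 0.0422). Primitive streak and mesoderm markers were also higher in EpiSCs than in AFSCs. They did not follow Axin2, Sp5 and Notum over all groups. Those 3 genes were highest in ESCs, where the sum of the streak and mesoderm markers was 25.5 to 29.1. The sum of T, Mixl1, Mesp1, Eomes, Tbx6 and Hand1 was 924 to 995 normalised read counts per kb in EpiSCs, 206 to 342 in AFSCs and 105 or less in every other sample, with T and Eomes at 417 ± 14.3 and 472 ± 27.6 in EpiSCs and 85.7 ± 38.6 and 159 ± 33.8 in AFSCs (SD, n = 3), and Mesp1 at 0 counts in AFSCs. Endoderm markers (Gata4, Gata6, Sox17 and Foxa2) summed to 210 to 226 in EpiSCs, 86.4 to 105 in AFSCs and 21.4 or less elsewhere. The part of streak and endoderm cells in these levels was not tested.

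The rest of the pathway was read from 105 genes in 6 lists, of which 90 passed the filter on low counts. Genes that passed only through the group where they are high had to differ, so the counts describe the lists and test nothing. Between ASCs and AFSCs, 9 of 15 tested ligand genes were lower and 3 higher, with a median of -1.63, where 31.2% of all tested genes were lower and 32.8% higher. Wnt8a stood at 897 ± 341 normalised read counts per kb in AFSCs, 324 ± 9.07 in EpiSCs, 103 ± 10.6 in EpiLCs, 16.6 ± 0.463 in ASCs and 0.974 and 0.669 in ESCs and ESC-ASCs, on at most 4 counts a library (SD, n = 3). Wnt3 stood at 136 in both AFSCs and EpiSCs, 11.9 in ASCs and 2.70 in ESC-ASCs. Rspo3, which enhances Wnt signals through LGR receptors, stood at 45.0 in EpiSCs and 21.0 in AFSCs, and at 0 counts in ESCs. Its relative Rspo1 stood at 87.1 in EpiSCs, 77.2 in EpiLCs, 20.6 in AFSCs and 6.02 or less in the others, and Wnt9b at 3.11 in EpiSCs, 1.94 in AFSCs and 0.625 or less in the others. Wnt4 in AFSCs stood at 49.6 ± 9.86 against 5.68 ± 1.24 in ASCs, which were lower by 3.14 (SE 0.23, adjusted p = 9.56e-10).

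Of 18 tested receptor genes, 9 were higher and 5 lower in ASCs than in AFSCs, beside 32.8% and 31.2% of all tested genes. Fzd5 was 2.41 higher (SE 0.14, adjusted p = 3.82e-11), at normalised read counts per kb of 113, 116 and 87.1 in ESCs, ASCs and ESC-ASCs against 21.1 to 43.3 in the other groups. Fzd2 was 2.98 lower (SE 0.25, adjusted p = 5.43e-09) and stood at 87.7 to 133 in EpiLCs, AFSCs and EpiSCs. The co-receptor Ror1 lay at 16.4 to 20.7 in those 3 groups and at 2.28 or less in the others. Lgr5, a receptor for R-spondins and a Wnt target in gut stem cells, was low, with 7 to 22 counts a library in AFSCs, 10 to 16 in EpiSCs, 3 to 12 in ASCs, 1 to 2 in EpiLCs and 0 in all ESC and ESC-ASC libraries. Its relative Lgr6 stood at 3.97 in ASCs, 1.33 in ESC-ASCs and 0.712 or less in the others. Fzd1 stood at 22.3 in AFSCs and 17.1 in EpiSCs against 5.68 or less in the others.

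Among 13 tested inhibitors 4 were higher and 3 lower in ASCs than in AFSCs, that is 53.8% called beside 64% of all tested genes. Apcdd1, a membrane antagonist, stood at 64.5 ± 15.6 normalised read counts per kb in the ESC samples, 76.9 ± 2.65 in ASCs and 11.0 ± 0.528 in ESC-ASCs, and ESC-ASCs were 2.79 lower than ASCs (SE 0.26, adjusted p = 6.62e-08). Dkk3, which despite its name is a divergent member of its family, stood at 55.8 in ESC-ASCs, 39.2 in ASCs and 15.6 in ESCs, with 0 or 1 count in the AFSC libraries. Cer1, a secreted antagonist of the anterior endoderm, was found in EpiSCs (114 ± 4.84) and AFSCs (6.50) and was at 0 counts in ESCs and ESC-ASCs. Frzb, a secreted Frizzled-related protein, stood at 28.5 in EpiSCs, 2.97 in AFSCs and 0.662 or less in the others. Wif1, which binds WNT proteins, stood at 6.92 in ASCs, 1.89 in ESCs, 0.959 in ESC-ASCs and 0.574 in EpiLCs, and at 0 counts in AFSCs and EpiSCs.

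Of 18 tested genes of the destruction complex and Dishevelled, 5 were higher and 2 lower in ESC-ASCs than in ASCs, which is 38.9% beside 50.7% of all tested genes, and 0 of these differed by more than 1 on the log2 scale. ASCs exceeded AFSCs in Tnks by 1.09 (SE 0.19, adjusted p = 8.58e-05), in Nkd2 by 1.02 (SE 0.24, adjusted p = 0.00127) and in Apc by 0.87 (SE 0.22, adjusted p = 0.00203). Apc2, Csnk1e and Dvl2 share bases with genes on the opposite strand. Apc2 stood at 3.86 in AFSCs and 1.29 or less in the others, and ESC-ASCs had the highest means of Csnk1e (171) and Dvl2 (259). Among 13 tested nuclear genes, 8 were lower and 0 higher in ESC-ASCs than in ASCs, where 27.7% of all tested genes were lower and 23% higher. Co-repressors Tle2 and Tle3 and the cofactor Pygo1 were higher in ASCs than in AFSCs by 2.08, 1.45 and 2.09 (SE 0.31, 0.22 and 0.33, adjusted p = 1.23e-05, 1.53e-05 and 2.02e-05), with opposite-strand overlap for Tle2. Bcl9l, an adaptor of β-catenin, was lower in ESC-ASCs than in ASCs by 1.63 (SE 0.22, adjusted p = 8.23e-06). Aes, a short co-repressor, stood at 2018 normalised read counts per kb in the ESC samples, 1328 in ASCs and 1083 in ESC-ASCs. Its level was 213 to 377 in the other groups. Tcf7l1, the repressive TCF of pluripotent cells, was chosen after its values were seen and shares bases with Gm15401 on the opposite strand. It stood at 505 ± 88.8 in ESCs, 427 ± 37.4 in EpiSCs, 265 ± 23.0 in AFSCs, 250 ± 41.3 in EpiLCs, 182 ± 40.0 in ASCs and 60.1 ± 5.16 in ESC-ASCs. Its level was 1.59 lower in ESC-ASCs than in ASCs (SE 0.18, adjusted p = 6.75e-07), while its relative Tcf7 was 0.33 higher in ESC-ASCs.

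Between ASCs and AFSCs 5 of 13 other tested Wnt-responsive genes were higher and 5 lower, beside 32.8% and 31.2% of all tested genes, and between ESC-ASCs and ASCs 10 were lower and 1 higher, beside 27.7% and 23% of all. Sp8, a relative of Sp5, stood at 114 in EpiSCs, 11.9 in AFSCs and 4.88 or less in the others, and the streak gene Mixl1 at 63.0, 12.8 and 2.66 or less. Cdx2, the paralogue of Cdx1 and a trophectoderm factor, stood at 94.9 ± 21.0 normalised read counts per kb in the ESC samples and 51.1 ± 8.80 in ASCs, and at 0.368 in ESC-ASCs, where the libraries held 0 to 4 counts. Msx2, a homeobox target of BMP and Wnt signals, stood at 36.1 ± 6.52 in ASCs, 2.98 ± 0.804 in ESC-ASCs and 1.86 or less in the other groups, and ESC-ASCs differed from ASCs by -3.57 (SE 0.30, adjusted p = 2.39e-08). Myc stood at 217 in EpiLCs and 227 in AFSCs, 120 in EpiSCs, 53.9 in ASCs, 8.63 in ESCs and 4.95 in ESC-ASCs, and ESC-ASCs were 3.43 lower than ASCs (SE 0.24, adjusted p = 2.30e-09).

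**Figure D4:**
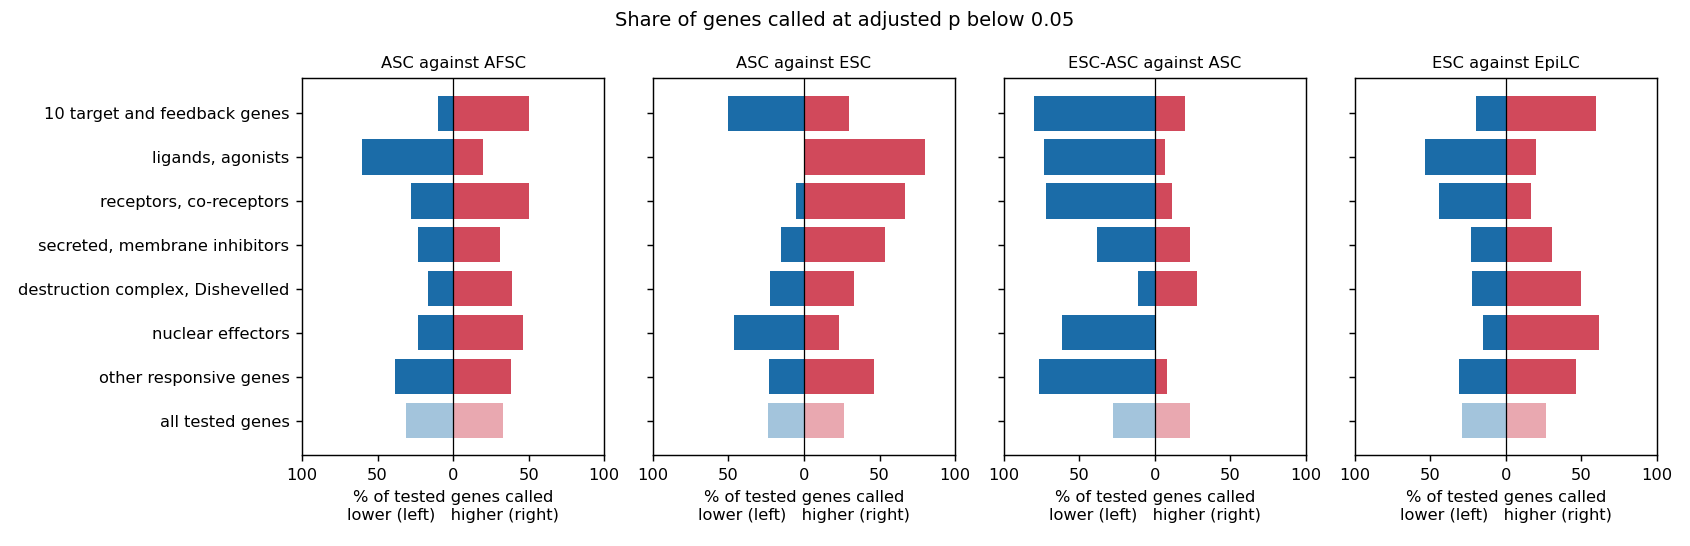
Percent of tested genes called higher (red, to the right) and lower (blue, to the left) in 4 comparisons, for the 10 target and feedback genes, 6 other lists of Wnt pathway genes and all 16901 tested genes (pale bars). In ESC-ASCs against ASCs, 8 of 10 target and feedback genes, 11 of 15 ligand genes and 13 of 18 receptor genes were lower, beside 27.7% of all tested genes.

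The genes whose log2 levels were most like that of Axin2 over the 18 samples were Phactr2 and Ctnnd2 (both r = 0.96), Ttc28, Bpifb5 and Zbtb39, and those most like Cdx1 were Nol4l (r = 0.97), Plagl1, Alpk3, Zc3hav1 and She. Ctnnd2, which encodes a neural relative of the catenins, stood at a normalised read count per kb of 24.0, 9.43 and 4.53 in ESCs, ASCs and ESC-ASCs, and of 2.02, 8.46 and 12.4 in EpiLCs, AFSCs and EpiSCs. These genes were picked for their likeness over samples that share 6 groups, so the values describe them only.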

How the data were processed

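PolyA RNA of 18 samples was sequenced with a strand-preserving kit. Per the labels and the study's methods, the authors aligned reads to GRCm38/mm10 with TopHat2 and Ensembl 86, and featureCounts (1.5.0-p1), set to ignore strand and to keep multi-mapping and overlapping reads, gave the deposited counts per gene, 1 file a sample. Groups came from the labels, 3 samples each. The study calls them biological replicates, but the labels do not say that they are separate cultures, so p-values measure only the spread between these samples.

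Of 35773 genes, the 16901 that reached 10 counts in 3 or more libraries were tested with edgeR 4.0.16 (TMM, quasi-likelihood test, 1 fit of all 18 samples with a mean per group, R 4.3.3) and Benjamini-Hochberg adjustment within each comparison at 0.05. Levels are counts over DESeq2 1.42.0 size factors and exonic length in kb. Ratios resting on few counts carry exact 95% intervals, and bounds against 0 use 3 counts per library; both cover counting error only. Named genes were all 10 members; from each pathway list, the up to 4 called genes with the largest log2 fold change in the CHIR99021 comparison and likewise in ASCs against AFSCs; and the 5 tested genes most correlated with Axin2 and with Cdx1. Members and lists were chosen with earlier results of these data known. The fit was tested on simulated data. Alternatives tried were other scaling, filters, DESeq2's test, fewer groups, a replicate block, a size threshold and leaving out libraries. The deviations of same-numbered samples had a mean r of 0.0539 over 45 pairs, 16 of them over 0.1, against -0.0259 over 90 pairs with different numbers, 12 of them over 0.1. Not every pair was over 0.1, so the numbers were not taken to pair samples. This rule does not address a batch shared by only some same-numbered samples, which was not tested.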

Additional observations from a re-analysis of the deposited data

Results flagged for a closer look

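The difference between ASCs and AFSCs was not that between ESC-ASCs and ESCs, in a comparison added after seeing the data. The value is the log2 fold change of ASCs over AFSCs minus that of ESC-ASCs over ESCs, tested as 1 term of the edgeR quasi-likelihood fit, in which 58.5% of all 16901 tested genes passed. It was 3.161 for Axin2 (SE 0.24, adjusted p = 1.67e-09), 5.272 for Sp5 (SE 0.28, adjusted p = 1.33e-11), 9.076 for Notum (SE 0.28, adjusted p = 1.05e-14), 7.438 for Dkk1 (SE 0.66, adjusted p = 1.44e-08), 1.757 for Rnf43 (SE 0.40, adjusted p = 0.000986) and 1.173 for Znrf3 (SE 0.25, adjusted p = 0.000528). Nkd1 took the opposite sign at -1.74 (SE 0.34, adjusted p = 0.000259). For Cdx1 the term passed (adjusted p = 2.53e-12), but its fitted size depends on the AFSC libraries at 0 counts. Taking the limit of 3 counts a library there, the difference was at least 9.14, a bound that was not itself tested. Lef1 (-0.35, adjusted p = 0.192) and Tcf7 (-0.01, adjusted p = 0.965) did not pass. The starting media differ in CHIR99021 and the ESC-ASC libraries are the deepest, and the part of either was not tested. Line, clone and passage are not given and cannot be told apart from the starting cell.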

How the results depend on the processing

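Requiring 10 counts in every sample left 10821 genes and 4 of the 10 (Axin2, Lef1, Tcf7 and Znrf3), of which 1, 2, 2, 3, 4, 1 and 3 were called in ASCs against AFSCs, ESCs against EpiLCs, ASCs against ESCs, ESC-ASCs against ESCs, ESC-ASCs against ASCs, AFSCs against EpiSCs and the 3 groups with CHIR99021 against the others, beside 60.4%, 54.3%, 45.6%, 60.1%, 49.9%, 38.5% and 74.4% of all genes left. A log2 threshold of 1 left 3 in ASCs against AFSCs and 6 in ESC-ASCs against ASCs. Leaving out 1 library gave 5 to 6, 8 to 9, 7 to 8, 7 to 9, 8 to 10, 6 and 7 to 9 in the same order. Other settings stayed within 1.5 times, and the replicate block, whose numbers were not taken to pair samples, gave 6, 8, 8, 8, 10, 6 and 8 (6 of 18 samples correlated best with their own number).

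Direction changed in no difference that the main fit called. In the CHIR99021 comparison the main fit called neither Dkk1 nor Znrf3. Without ESC-ASCs they gave 1.275 (adjusted p = 0.000244) and 0.2564 (adjusted p = 0.0729). Dkk1 was called with the opposite sign in 3 other alternatives, as at -0.9682 (adjusted p = 0.0324) without the second ESC-ASC library. Znrf3 was called at -0.2542 (adjusted p = 0.0140) without the first ESC, ASC, EpiLC and AFSC libraries. With 1 library left out, ASCs against AFSCs ran from -0.08063 to 0.1567 for Lef1, -0.05254 to 0.06294 for Tcf7 and -0.1078 to 0.27 for Znrf3, ASCs against ESCs from -0.1504 to 0.1392 for Znrf3, AFSCs against EpiSCs from -0.3252 to 0.5972 for Rnf43 and -0.009062 to 0.313 for Znrf3, and ESC-ASCs against ESCs from -0.032 to 0.1042 for Tcf7. Without the first ESC, ASC, EpiLC and AFSC libraries, a choice made after seeing the data, Tcf7 gave -0.0145 in ASCs against AFSCs and -0.01461 in ESC-ASCs against ESCs, and Znrf3 gave -0.1337 in ASCs against AFSCs and -0.03233 in ASCs against ESCs. The cause was not tested. Values of Dkk1, Sp5, Rnf43 and Cdx1 in EpiLCs and of Dkk1 in ESC-ASCs rest on 0 to 4 counts a library, which widens their counting intervals.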
